A study of Mus musculus with 48 samples.

Results

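The small heat shock proteins of muscle were followed through 6 genes, Hspb1, Hspb2, Hspb3, Hspb7, Hspb8 and Cryab, taken by name from the array's gene annotation. They were read by 13 probe sets, and the 6 genes stood among 18194 genes measured. C2C12 is a mouse myoblast cell line whose cells stop dividing and fuse to myotubes once serum is withdrawn. RNA was measured on 48 arrays in 16 groups of 3. One pair of groups held undifferentiated cells in medium with 20% fetal bovine serum, harvested 24 h before induction and at 0 h. A further 12 groups were cells moved to 2% horse serum and harvested at 0.5, 1, 1.5, 2, 3, 6, 9, 12, 24, 48, 96 and 144 h. The last pair of groups received 50 µM cycloheximide, an inhibitor of protein synthesis, from 1 h before the medium change and was harvested 1 h and 3 h after it. The 3 arrays of a group came from plates of successive passages of this 1 line, so p-values measure the spread between passages of one line and not between animals.

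Small heat shock proteins share an alpha-crystallin domain, form oligomers and hold unfolding proteins without using ATP. Muscle holds many of them, where they bind actin, intermediate filaments and titin and protect the Z-disc under mechanical strain. Several are controlled by heat shock factor, others mainly by the muscle programme. Cryab (alpha B-crystallin) binds desmin and titin. Hspb2 binds the kinase Dmpk and forms complexes with Hspb3, its muscle partner. Hspb7 is a heart and skeletal muscle protein that binds filamin C. Hspb8 works with the co-chaperone Bag3 in removing damaged filamin, and Hspb1 (Hsp27) binds actin and is phosphorylated downstream of p38 kinases.

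The sequences before the start sites of 4 of the 6 genes are shown because 3 of these genes rose together and 1, Hspb1, did not. They are the 250 bases before the RefSeq start (build GRCm38.p6), 5′ to 3′ on the gene's strand, for Hspb1 at chr5:135887669-135887918, plus strand, Hspb3 at chr13:113663677-113663926, minus strand, Hspb7 at chr4:141420529-141420778, plus strand and Hspb8 at chr5:116422865-116423114, minus strand. Capitals mark matches to a searched motif.
Hspb1: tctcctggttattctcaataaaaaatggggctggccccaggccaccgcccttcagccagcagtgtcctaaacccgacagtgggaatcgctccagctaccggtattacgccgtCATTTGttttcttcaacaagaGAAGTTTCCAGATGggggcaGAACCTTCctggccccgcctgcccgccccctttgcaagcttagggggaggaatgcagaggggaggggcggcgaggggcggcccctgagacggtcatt
Hspb3: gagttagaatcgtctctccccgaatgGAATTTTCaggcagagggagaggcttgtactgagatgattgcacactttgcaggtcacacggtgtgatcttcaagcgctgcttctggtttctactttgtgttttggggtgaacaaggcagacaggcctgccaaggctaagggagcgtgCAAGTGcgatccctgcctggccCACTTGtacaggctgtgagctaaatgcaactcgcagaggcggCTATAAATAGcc
Hspb7: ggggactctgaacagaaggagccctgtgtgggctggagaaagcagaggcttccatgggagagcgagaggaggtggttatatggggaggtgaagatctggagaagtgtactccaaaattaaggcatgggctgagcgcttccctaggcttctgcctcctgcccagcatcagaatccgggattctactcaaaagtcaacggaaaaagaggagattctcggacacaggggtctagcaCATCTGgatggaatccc
Hspb8: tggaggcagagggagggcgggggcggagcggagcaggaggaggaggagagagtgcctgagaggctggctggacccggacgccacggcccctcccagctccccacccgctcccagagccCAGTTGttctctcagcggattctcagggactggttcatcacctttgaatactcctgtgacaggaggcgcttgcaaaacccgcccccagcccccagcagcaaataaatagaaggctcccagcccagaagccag
The motifs, searched on both strands, were the E-box CANNTG to which myogenic factors bind, the heat shock element as GAANNTTC or TTCNNGAA, the MEF2 site and the CArG box. Counting the base before the start as -1, Hspb1 held GAAGTTTC at -117 to -110 and GAACCTTC at -97 to -90. It also held 2 E-boxes, CATTTG at -138 to -133 and CAGATG at -109 to -104, directly after GAAGTTTC. Hspb3 held GAATTTTC at -224 to -217, 2 E-boxes, and a MEF2 site at -12 to -3 that also reads as a TATA box. Hspb7 and Hspb8 held 1 E-box each and neither heat shock element. Among 32851 RefSeq windows of this length 66.2% held an E-box, 12.8% either heat shock element, 2.92% a MEF2 site and 1.47% a CArG box (held by none of these 4). A match is a match of letters and not a measured binding site. Hspb2 and Cryab lie next to each other in the RefSeq annotation, and their windows are not shown.

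Markers of skeletal muscle were present. The 8 skeletal muscle markers summed to a log2 level of 10.35 to 10.73 at 24 h before induction, 11.81 to 13.17 at 0 h and 15.51 to 15.80 at 144 h, and all 8 were called higher at 144 h than at 0 h. Cardiac (4 of 4 measured, Myh6, Nppa, Tnni3 and Myl7), lens (3 of 3) and bone and cartilage markers (4 of 5) had no gene whose group mean was above the median gene in any of the 16 groups, and over all arrays they summed to 5.33 to 6.31, 5.42 to 5.83 and 5.59 to 6.17. Leukocyte markers (4 of 5) summed to 5.94 to 6.65, myoblast markers (5 of 5) to 13.67 to 14.01 and smooth muscle markers (5 of 5, which myoblasts share in part) to 13.15 to 13.85. The summed level of adipocyte markers, led by Lpl, was 8.02 to 8.39 at 24 h before induction, 10.31 to 11.43 at 0 h and 7.66 to 8.43 at 144 h. The part of the muscle and adipocyte lists in any difference from 0 h was not tested. In a culture, fewer myotubes and less RNA per myotube cannot be told apart. Values are log2 RMA intensities, and the median probe set of an array lay between 4.003 and 4.157 without cycloheximide and between 4.20 and 4.24 with it.

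Over differentiation 5 of the 6 genes rose and Hspb1 was slightly lower at the end. At 144 h against 0 h the difference was 4.75 log2 units (26.9-fold, SE 0.21) for Hspb7, 4.04 (16.5-fold, SE 0.21) for Hspb3, 2.62 (6.14-fold, SE 0.29) for Hspb2, 1.99 (3.96-fold, SE 0.14) for Cryab and 1.84 (3.57-fold, SE 0.30) for Hspb8. The limma test across all genes called these 5 higher (adjusted p from 8.15e-20 for Hspb7 to 5.22e-06 for Hspb8, called when under 0.05), where 13.5% of all genes were called higher. It called Hspb1 lower, where 14.9% of all genes were called lower. The median difference was 2.30 over the 6 genes and 0.04 over all genes. Over the 14 groups without cycloheximide the group means of Hspb7 spanned 5.01 log2 units, more than those of 99.6% of genes, and those of Hspb1 spanned 0.58, more than those of 60.2%.

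**Figure D1:**
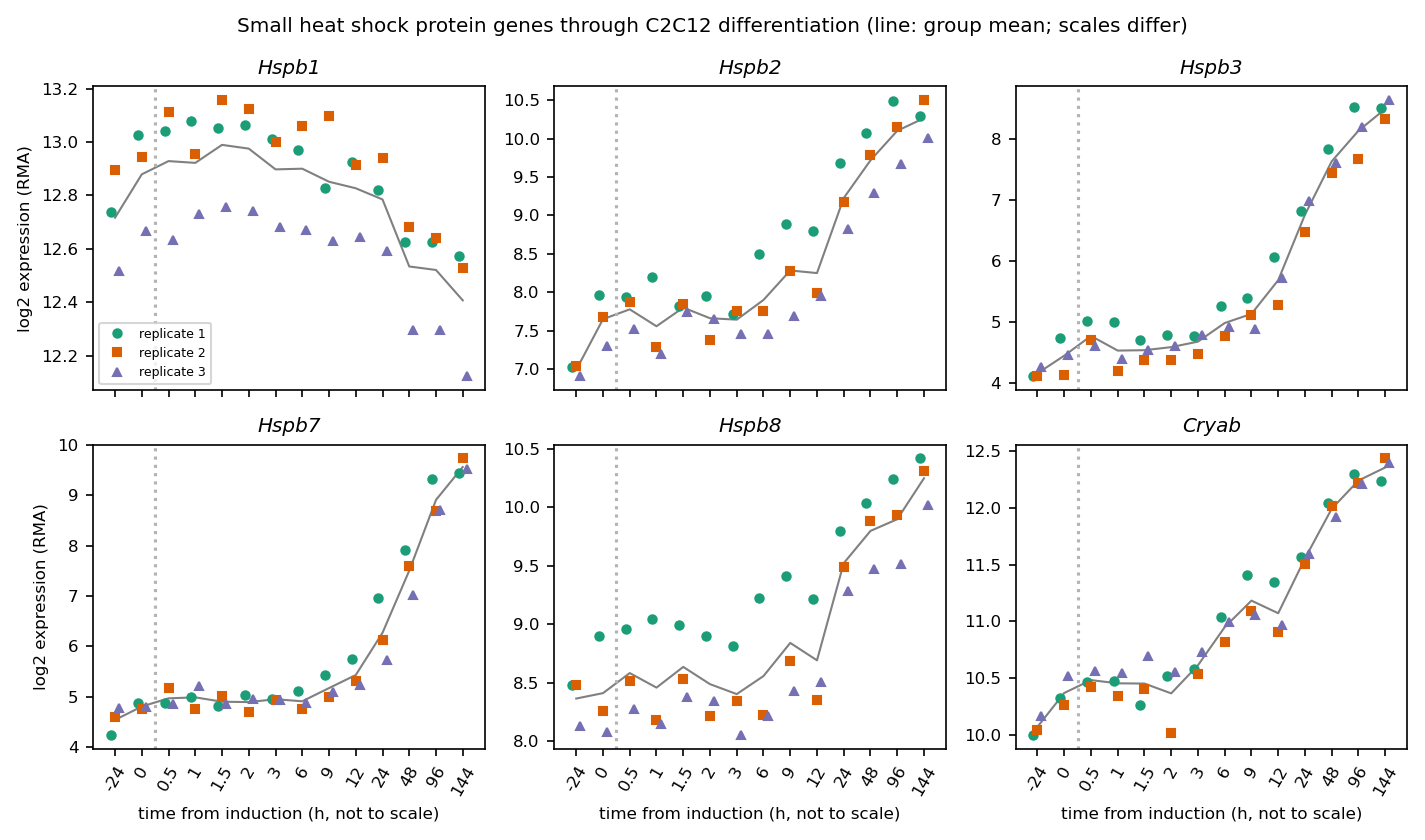
Level of each gene (log2 RMA intensity, vertical axis with its own scale per panel) on the arrays without cycloheximide by time from induction in h (not to scale). Points are the 3 arrays of a group by replicate number, the line joins group means, and the dotted line marks the change of medium. All panels but that of Hspb1 climb to their highest mean at 144 h, and Hspb1 ends at 12.41 from 12.88 at 0 h.

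No small heat shock protein gene among the 6 passed the test in the first 3 h. At 0.5, 1, 1.5, 2 and 3 h against 0 h none of the 6 genes was called by limma, and none had an unadjusted p under 0.05, where the share of all genes called in either direction was 0.0385%, 0.192%, 0.423%, 0.517% and 0.39%. At 6 h and at 9 h 1 gene, Cryab, was called higher, where 0.148% and 0.747% of all genes were. At 12 h Cryab and Hspb3 were called higher, where 1.19% of all genes were. At 24, 48 and 96 h the same 5 genes as at 144 h were called higher, where 6.56%, 12.4% and 15.5% of all genes were. With the replicate number as a block, Hspb3 was called from 6 h (adjusted p = 0.0164) and Hspb2 from 9 h (adjusted p = 0.0211). The moderated F-test over the 12 times called all 6 genes, where 38.2% of all genes were called; for Hspb1 (adjusted p = 0.0292) it did not after centring on housekeeping genes (adjusted p = 0.170) or without replicate 3 at 48, 96 or 144 h (adjusted p = 0.0538, 0.0581 and 0.103). All these comparisons share the 3 arrays at 0 h.

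Group means from 0.5 h to 3 h stayed within 12.90 to 12.99 for Hspb1, 7.56 to 7.80 for Hspb2, 4.53 to 4.77 for Hspb3, 4.90 to 4.99 for Hspb7, 8.40 to 8.64 for Hspb8 and 10.37 to 10.61 for Cryab. For Hspb8 in the step from 12 h to 24 h the SE was 0.30 in the main fit and 0.13 once blocked on the replicate number. The intervals given here for 3 h are from the main fit, which held no replicate term. They show the range of early change at 3 h left possible by that fit, and blocked intervals are not given. For Cryab, at 10.58, 10.53 and 10.73 then, all arrays lay just above 0 h, and the difference was 0.24 (95% interval -0.03 to 0.52, adjusted p = 0.778). For Hspb7, at 4.97, 4.95 and 4.95, the arrays also lay above 0 h, and the difference was 0.14 (95% interval -0.29 to 0.58). The other 4 genes overlapped with 0 h at this time, and of all genes 6.41% had 3 h arrays wholly above those at 0 h. The widest interval was that of Hspb8, -0.61 to 0.60, and Hspb2 had -0.60 to 0.59. Arrays wholly above 0 h were seen for 2 members at 6 h (Cryab and Hspb3) and for 3 at 9 h and at 12 h (with Hspb7), where 6.74%, 7.5% and 8.95% of all genes had them.

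**Figure D2:**
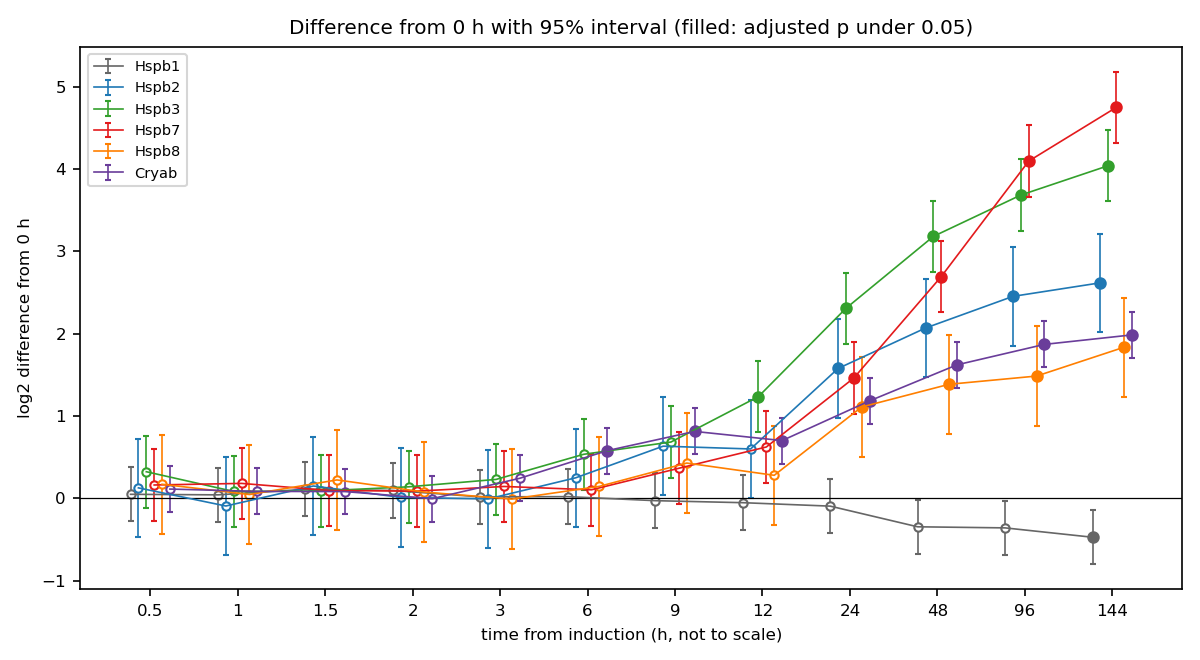
Difference of each gene from 0 h (log2, vertical axis) at the 12 times after induction (h, not to scale), with 95% intervals from limma; filled points have an adjusted p under 0.05 over all genes. Cryab is filled from 6 h, Hspb3 from 12 h, Hspb2, Hspb7 and Hspb8 from 24 h, and Hspb1 at 144 h alone.

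Cryab, the alpha B-crystallin gene, was the first to be called in the main fit. With the replicate number as a block Hspb3 was called at 6 h too (adjusted p = 0.0164). The level of Cryab was 10.32, 10.26 and 10.52 at 0 h and 11.03, 10.82 and 11.00 at 6 h, and the groups lay apart. The difference of 0.58 (95% interval 0.30 to 0.86, adjusted p = 0.0343) was called. This call was lost on leaving out replicate 1 or 2 at 0 h or replicate 1 or 3 at 6 h (adjusted p from 0.135 to 0.251), with the difference at 0.53 to 0.56, and when only the arrays compared were fitted (adjusted p = 0.0832). The level was 11.40, 11.09 and 11.06 at 9 h and 11.34, 10.90 and 10.97 at 12 h, differences of 0.81 (adjusted p = 0.000776) and 0.70 (adjusted p = 0.00215) from 0 h. With only the arrays compared the 9 h call was lost as well (adjusted p = 0.09996). Across the alternative settings the number of all genes called ranged from 3 to 465 at 6 h (main 92) and from 0 to 748 at 9 h (main 247). At 24 h the 3 arrays were within 11.51 to 11.59. They read 12.04, 12.02 and 11.92 at 48 h, 12.30, 12.21 and 12.21 at 96 h and 12.23, 12.44 and 12.39 at 144 h. From 24 h to 96 h each group lay wholly above the one before, and the last pair overlapped. By 6 h Cryab had thus gone 29.2% of its way on the log2 scale from 0 h to 144 h, and by 24 h 59.6%. The rise was seen on 2 of its 3 probe sets. The second, 1416455_a_at, rose by 2.26 (SE 0.21) at 144 h against 1.99 (SE 0.14) for 1434369_a_at, which stands for the gene, and its 6 h difference of 0.75 missed the threshold (adjusted p = 0.131). The third, 1435837_at, stayed between 3.08 and 3.42 in the mean of every group, below the array medians.

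Hspb2, the neighbour of Cryab and binding partner of Dmpk, was at 7.97, 7.68 and 7.30 at 0 h. Its arrays spread widely at 6 h (8.49, 7.75 and 7.45) and 9 h (8.89, 8.27 and 7.69). At 12 h they read 8.80, 7.99 and 7.96, which overlapped with 0 h, and the difference of 0.60 missed the threshold (adjusted p = 0.367) unless the replicate number was a block (adjusted p = 0.0238). At 24 h they read 9.69, 9.17 and 8.82, all above every array at 0 h. That difference was 1.58 (95% interval 0.98 to 2.17, adjusted p = 0.000193), or 60.3% of the difference at 144 h. Levels reached 10.07, 9.79 and 9.30 at 48 h, 10.49, 10.15 and 9.67 at 96 h and 10.29, 10.51 and 10.004 at 144 h, and each of these groups overlapped with the one before it.

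Hspb3, which assembles with Hspb2, started near the array median, at 4.75, 4.14 and 4.47 at 0 h. At 6 h (5.26, 4.77 and 4.93) and 9 h (5.40, 5.12 and 4.88) all arrays were already above 0 h, without a call (adjusted p = 0.411 and 0.117) unless blocked as above. It read 6.06, 5.27 and 5.72 at 12 h, above all arrays at 0 h. This difference of 1.24 (95% interval 0.80 to 1.67, adjusted p = 0.000574) was called. The level was 6.82, 6.47 and 6.99 at 24 h, 7.84, 7.45 and 7.61 at 48 h and 8.51, 8.32 and 8.64 at 144 h. Each of these groups lay wholly above the one named before it, while the 96 h arrays, at 8.53, 7.68 and 8.19, overlapped with both neighbours. Since the array has 1 probe set for Hspb3 and 1 for Hspb2, no second reading of either exists here.

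Hspb7, the filamin C binding member, was at 4.88, 4.75 and 4.79 at 0 h. It was at 5.44, 4.99 and 5.09 at 9 h and at 5.74, 5.31 and 5.24 at 12 h, above 0 h without a call (adjusted p = 0.611 and 0.125). At 24 h its arrays spread widely, at 6.97, 6.12 and 5.72, all above 0 h. That difference was 1.46 (95% interval 1.03 to 1.90, adjusted p = 4.84e-06). It was 30.8% of the difference at 144 h, where the other 4 rising genes stood at 57.1% to 60.5%. This contrast in timing was not tested. The level went on to 7.91, 7.59 and 7.01 at 48 h, 9.32, 8.68 and 8.71 at 96 h and 9.43, 9.73 and 9.51 at 144 h, and each of these 3 groups lay wholly above the one before, while 12 h and 24 h overlapped. Its 3 probe sets rose by 4.75 (1434927_at), 3.98 (1421290_at) and 3.63 (1421289_at) at 144 h, each with an adjusted p under 0.05. They differed from one another by over 1 log2 unit for 1 gene, so the sizes of the rises are not ranked between genes. At 24 h the dimmest of them, 1421289_at, missed the threshold (0.56, adjusted p = 0.122).

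Hspb8, the partner of Bag3, was at 8.90, 8.26 and 8.08 at 0 h and at 9.79, 9.49 and 9.28 at 24 h. The groups lay apart, and the difference was 1.11 (95% interval 0.51 to 1.71, adjusted p = 0.00888). Without replicate 3 at 0 h or replicate 1 at 24 h the adjusted p was 0.0696 and 0.0613. At 9 h (9.41, 8.69 and 8.43) and 12 h (9.21, 8.36 and 8.51) it had still overlapped with 0 h. The level was 10.04, 9.88 and 9.47 at 48 h, 10.24, 9.93 and 9.51 at 96 h and 10.42, 10.31 and 10.02 at 144 h, and neighbouring groups overlapped from 24 h on. Its probe sets 1417013_at and 1417014_at rose by 1.84 and 1.88 at 144 h, and 1456434_x_at by 0.81 (SE 0.14), all called.

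Hspb1, the actin-binding Hsp27 gene, went the other way. It read 13.03, 12.94 and 12.67 at 0 h, was highest on average at 1.5 h (13.05, 13.16 and 12.76) and read 12.57, 12.53 and 12.12 at 144 h, below all arrays at 0 h. In between it was at 12.82, 12.94 and 12.59 at 24 h, 12.62, 12.68 and 12.30 at 48 h and 12.62, 12.64 and 12.30 at 96 h. The difference at 144 h was -0.47 (95% interval -0.80 to -0.14, adjusted p = 0.0254), 1.39-fold lower. It was lost without replicate 1 or 2 at 0 h or replicate 3 at 144 h (adjusted p = 0.111, 0.0795 and 0.199), after centring on housekeeping genes (-0.31, adjusted p = 0.128) and with only the arrays compared (adjusted p = 0.0751). At 48 h and 96 h the differences of -0.35 and -0.36 were not called (adjusted p = 0.119 and 0.0900). Blocking on the replicate number called both (adjusted p = 2.68e-05 and 1.14e-05). Its second probe set, 1425964_x_at, was lower by a similar amount at 144 h (-0.54, SE 0.18, adjusted p = 0.0282).

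Steps between late times placed the climb. From 12 h to 24 h Hspb3 (1.07, adjusted p = 0.00321) and Hspb7 (0.84, adjusted p = 0.0338) were called higher, where 1.09% of all genes were. Both calls hung on single arrays. Without replicate 2 at 12 h neither was called (adjusted p = 0.0861 and 0.214). The call of Hspb7 was also lost without replicate 3 at 12 h (adjusted p = 0.181), without replicate 2 at 24 h (0.0574), without replicate 1 at 24 h, where its step was 0.49 (0.510), over the mean of its 3 probe sets (0.180) and with only the arrays compared (0.170). With the replicate number as a block Hspb2, Hspb8 and Cryab were called in this step as well (adjusted p = 0.000192, 4.55e-05 and 0.0143). From 24 h to 48 h Hspb3 (0.87, adjusted p = 0.0115) and Hspb7 (1.23, adjusted p = 0.000264) were called again, where 1.88% of all genes were; Hspb3 was not without replicate 2 at 24 h or replicate 1 at 48 h (adjusted p = 0.106 in both). Blocking added Cryab (0.44, adjusted p = 0.0177) and a fall of Hspb1 (-0.25, adjusted p = 0.00677). From 48 h to 96 h 1 gene, Hspb7 (1.40, adjusted p = 4.02e-05), was called, where 1.96% of all genes were, and the block added Hspb3 (0.50, adjusted p = 0.00935). With only the arrays compared the steps of Hspb7 to 48 h and to 96 h missed the threshold (adjusted p = 0.1002 and 0.109). Across the alternative settings 282 to 1475 of all genes were called in the step to 48 h (main 708). In the step to 96 h they were 8 to 1551 (main 844). From 96 h to 144 h limma called none, 1 of the 6 genes had an unadjusted p under 0.05 and 0.313% of all genes were called. For Hspb7 that last step was 0.65 (95% interval 0.22 to 1.09, adjusted p = 0.289), with the 144 h arrays wholly above those at 96 h, as for 2.66% of all genes, and the other 5 genes overlapped.

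Before induction the cells spent a day in growth medium. Against 24 h before, limma called none of the 6 at 0 h, 2 had an unadjusted p under 0.05 and 13.1% of all genes were called. Hspb2 read 7.03, 7.03 and 6.90 at 24 h before induction and so lay wholly below 0 h, by 0.66 (95% interval 0.06 to 1.26, adjusted p = 0.159). With only the arrays compared this difference was called (adjusted p = 0.0265). Cryab read 9.9998, 10.04 and 10.17 then, also wholly below 0 h, by 0.30 (95% interval 0.02 to 0.58, adjusted p = 0.178). The other 4 genes overlapped, and 15.7% of all genes had 0 h arrays wholly above those of the day before. Taken from this earlier start, the same 5 genes were higher at 144 h (1.88 to 5.01 log2 units), where 17.8% of all genes were called higher, and Hspb1 was not called (-0.31, adjusted p = 0.150).

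The cycloheximide groups show the levels of these genes while protein synthesis was blocked. None of the 6 genes was called by limma at 1 h or at 3 h, where 24.6% and 34.4% of all genes were called (at 3 h 30.9% higher and 3.42% lower), and 1 of the 6 had an unadjusted p under 0.05 at each time. Array medians were higher with the drug, and the median difference of all genes was 0.20 at 1 h and 0.19 at 3 h, against -0.01 and -0.02 after the arrays were quantile normalized again. That normalization took the number of genes called, of 18194, from 4470 to 1234 at 1 h and from 6250 to 4376 at 3 h. Hspb2 at 1 h read 8.55, 8.12 and 7.89 with the drug and 8.20, 7.28 and 7.19 without, which overlapped. Its difference of 0.63 (95% interval 0.03 to 1.23, adjusted p = 0.114) was 0.43 above the median of all genes and 0.33 after the renewed normalization. It was called without replicate 1 of the untreated cells at 1 h (0.95, adjusted p = 0.0248). Cryab at 3 h read 10.50, 9.98 and 10.45 with the drug and 10.58, 10.53 and 10.73 without, so all treated arrays were lower, as for 6.21% of all genes. That difference of -0.30 (95% interval -0.58 to -0.02, adjusted p = 0.0860) was called after quantile normalization (-0.43, adjusted p = 0.0205), with blocking (adjusted p = 0.0439) and without replicate 1 of the treated cells (-0.40, adjusted p = 0.0471). These Cryab values are from 1434369_a_at. On 1416455_a_at the 3 h arrays read 10.45, 9.97 and 9.69 with the drug and 10.43, 10.41 and 10.15 without. They overlapped, and the difference of -0.30 was not called (adjusted p = 0.293). The remaining differences lay between -0.26 and 0.38. In the main fit their 95% intervals reached as far as -0.69 and 0.98, so that fit does not exclude changes of that size. The 0.38 was that of Hspb8 at 1 h, which blocking called (adjusted p = 0.0229). At 1 h not every same-numbered pair of treated and untreated arrays had deviations correlated above 0.1. The drug's effect did not differ between 3 h and 1 h for any of the 6 genes at an adjusted p under 0.05 (4.29% of all genes were called); for Cryab the change in effect was -0.40 (95% interval -0.79 to -0.01, adjusted p = 0.374).

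**Figure D3:**
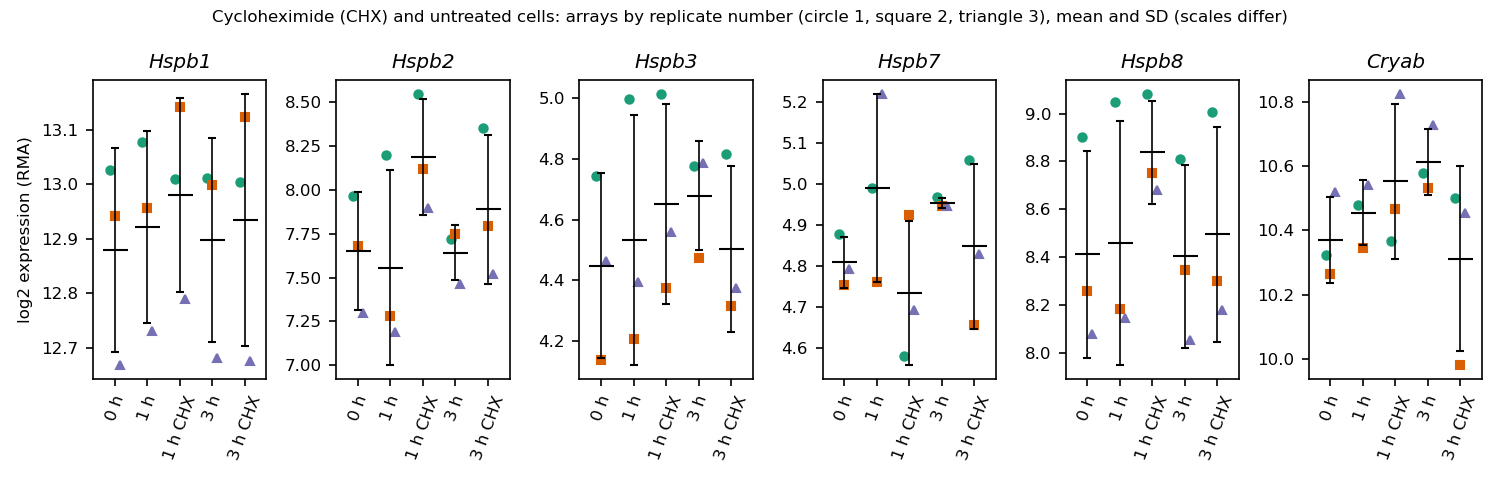
Level of each gene (log2 RMA intensity, own scale per panel) at 0 h and at 1 h and 3 h with and without cycloheximide (CHX), with arrays marked by replicate number and the mean and SD (n = 3) drawn beside them. On the probe sets drawn, treated and untreated arrays overlap in all panels except Cryab at 3 h, where the treated arrays are lower.

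Within groups the arrays tended to keep an order by replicate number. In all 14 groups without cycloheximide replicate 3 was the lowest array for Hspb1, on both of its probe sets, by 0.23 on average below the group mean on 1422943_a_at. For Hspb2 replicate 3 was lowest in 13 groups. For Hspb8 replicate 1 was highest in 13 and replicate 3 lowest in 12 on 1417013_at and on 1417014_at, against 8 and 6 on 1456434_x_at. For Hspb3 replicate 2 was lowest in 12. The 2 bright probe sets of Cryab disagreed, replicate 3 being lowest in 12 groups on 1416455_a_at and highest in 8 on 1434369_a_at. The deviations of the 42 arrays from their group means had r = 0.90 between Hspb2 and Hspb8 and r = 0.35 between Hspb2 and its neighbour Cryab, over arrays normalized together. What distinguishes the replicate numbers beyond successive passages was not tested.

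**Figure D4:**
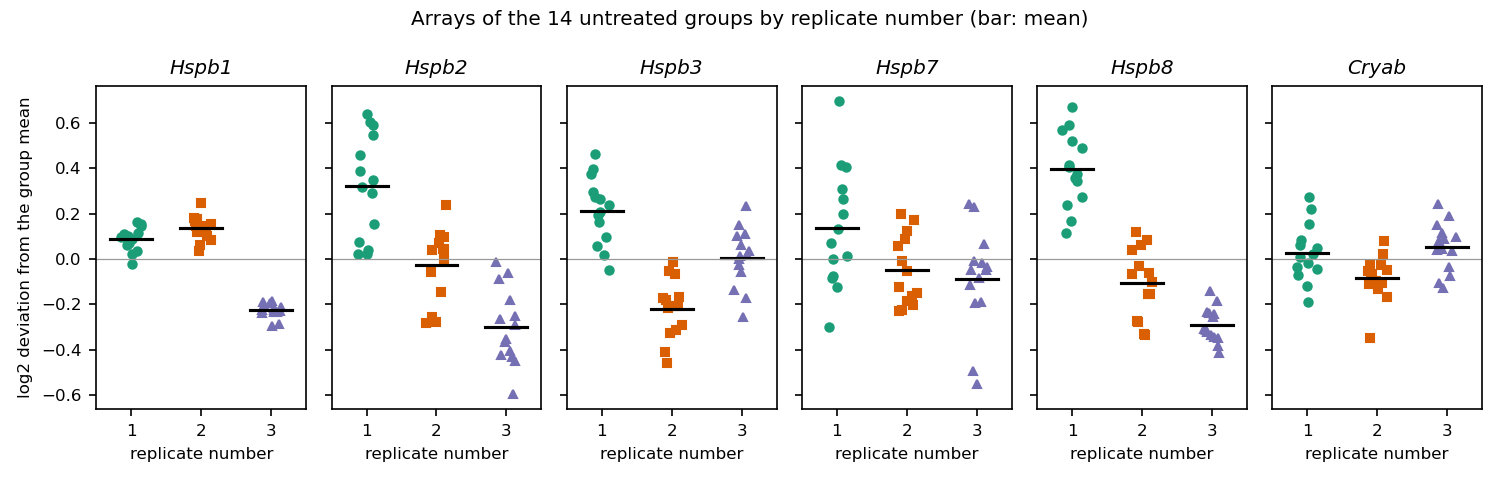
Deviation of each array from its group mean (log2, vertical axis) by replicate number for the 14 groups without cycloheximide, with the mean as a bar. Replicate 3 lies below 0 in every group for Hspb1, Hspb2 and Hspb8, and replicate 1 lies above 0 in every group for Hspb2 and Hspb8.

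Group means of the 5 rising genes followed one another closely, with r from 0.93 to 0.99 between pairs over the 14 groups and from 0.73 to 0.93 over the 10 groups up to 12 h. Hspb1 had r from -0.91 to -0.83 with them over 14 groups and from -0.02 to 0.29 over the first 10. These are descriptions across times that share arrays and a common trend. By the highest r over the 14 group means among genes spanning at least 1 log2 unit, Hspb2 was most like Neurl1a (0.996), the myoglobin gene Mb (0.995) and the calcium release channel gene Ryr1 (0.994). Hspb3 was most like Pgam2 (0.997), Myom1 (0.996), an M-band gene, and Lmod2 (0.995), an actin nucleator gene. Hspb7 was most like Slc4a3 (0.996), Alpk3 (0.995) and Scml4 (0.994), Hspb8 like Acsl6 (0.993), Tmem189 (0.992) and the calcium channel gene Cacna1s (0.992), and Cryab like Ube2g2 (0.994), Smpx (0.993) and Klhl40 (0.992). Hspb1, whose own means spanned 0.58, was most like Sulf2 (0.981), Pmp22 (0.977) and Fzd5 (0.969), which it followed downward. Genes spanning as little as Hspb1 were not candidates. Small RNAs and genes with clone or provisional names were left out for all members.

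Among the 4 other small heat shock protein genes measured (Hspb6, Hspb9, Cryaa and Odf1) none was called at 144 h against 0 h, with differences from -0.24 to 0.25. After centring on housekeeping genes 2 of them were called higher, Hspb9 and Cryaa. That centring also raised the number of all genes called higher from 2460 to 4976 and their median difference from 0.04 to 0.19. Hspb6, a further small heat shock protein of muscle, read 7.35 to 7.83 at 0 h, 5.90 to 6.65 at 24 h and 7.23 to 7.70 at 144 h. It thus fell by 1.42 at 24 h (SE 0.39, adjusted p = 0.0107), a time at which 5 of the 6 members were called higher.

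Genes that work with these proteins are given at 144 h against 0 h, where 13.5% of all genes were called higher and 14.9% lower. In the Bag3 pathway of chaperone-assisted autophagy 2 of 6 genes rose, Synpo2 (2.54, SE 0.22) and Flnc (0.67, SE 0.26), and none fell, while the Hspb8 partner Bag3 itself stood at 0.03 (adjusted p = 0.882); the list median was 0.12 against 0.04 for all genes. Among cytoskeletal partners 6 of 10 rose and 2 fell, with the largest differences in Actn2 (5.57), Ttn (4.17), Acta1 (4.09) and Dmpk (1.51), the kinase that Hspb2 binds; the median was 0.94. Of the kinases that act on small heat shock proteins 3 of 7 rose, Mapk12 (1.98), Mapkapk2 (0.54) and Mapkapk5 (0.49), and Mapk14 fell (-0.28, not called under either other scaling). Of the 4 genes listed as myosin-folding chaperones of muscle, Unc45b (5.28) and Smyd1 (3.28) rose. Dnajb6 fell (-0.54, not called after centring on housekeeping genes). A place in this list does not show that a gene's product folds myosin. Of 8 myogenic factors 4 rose, with Mef2c at 5.83, Myf6 at 2.44 and Myog at 2.31, and 2 fell, Myf5 by 2.49 among them.

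Genes of the classical heat shock response, the large chaperones and co-chaperones, were called at 144 h about as often as all genes. At 144 h against 0 h 2 of its 15 measured genes rose, Hsph1 (0.90) and Ahsa1 (0.22), and 2 fell, Hspd1 (-0.83) and Hsp90aa1 (-0.67), against 13.5% of all genes higher and 14.9% lower, with a median of 0.09. That balance depended on scaling, being 6 higher and 1 lower after centring on housekeeping genes, where Hsp90aa1 was not called. The same centring took all genes called higher from 2460 to 4976 and those called lower from 2709 to 1876. Of the heat shock factors Hsf4 rose (0.31) and Hsf2 did not pass (0.01, adjusted p = 0.954), and Hsf1 was not analysed here. In the day before induction 10 of the 15 fell and none rose, where 5.86% of all genes fell, with a median of -0.62 against 0.01 for all genes (9 fell under each of the other scalings). Over that day none of the 6 members was called in either direction.

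**Figure D5:**
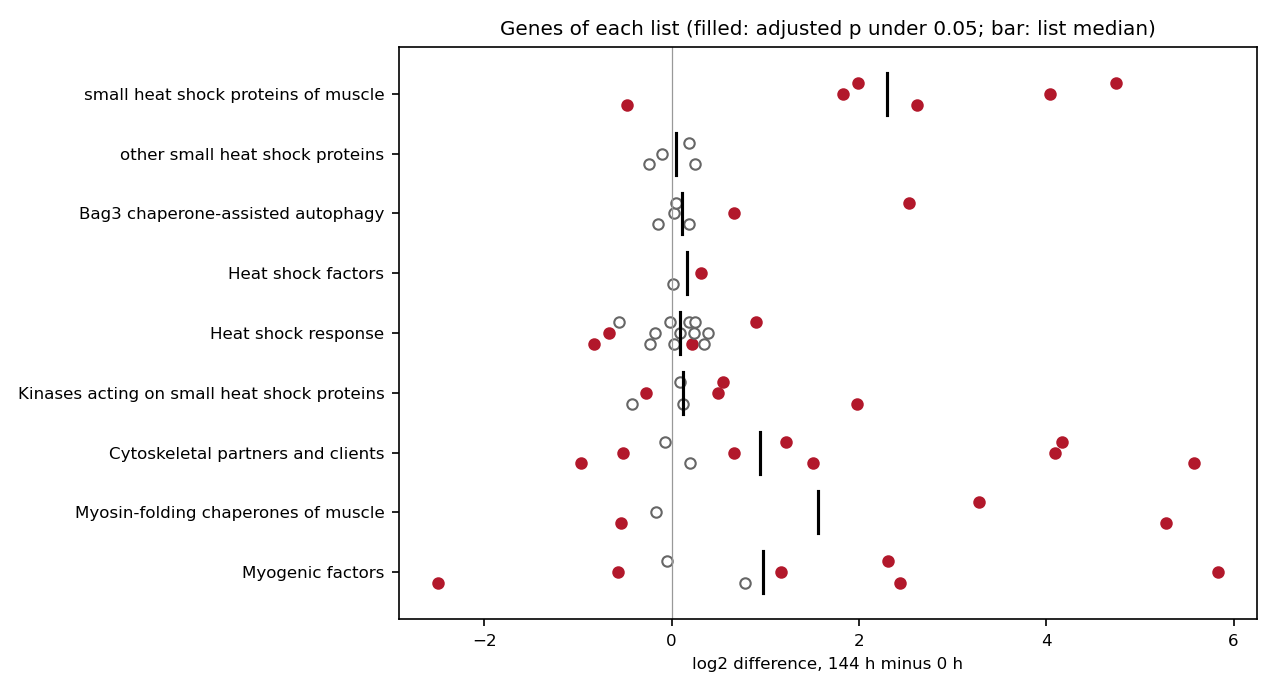
Difference at 144 h against 0 h (log2, horizontal axis) of each measured gene in the 6 members and in 8 lists of related genes, 1 point per gene, filled where the adjusted p over all genes was under 0.05, with the list median as a bar. The members' median is 2.30 and the medians of the heat shock response and of the other small heat shock proteins are 0.09 and 0.04. Members and lists were chosen with earlier results of these data known, so the contrast between their medians is no test. The other small heat shock proteins include Cryaa, a lens marker below the median gene in every group.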

How the data were processed

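Total RNA of C2C12 cells was hybridised to Affymetrix MOE430v2 arrays, and the authors deposited 1 table of log2 expression values, made with RMA per the submitters' processing notes (version not given in the sources used here). From that table, limma 3.58.1 in R 4.3.3 was fitted with 1 coefficient per group over 48 arrays (32 residual degrees of freedom, lmFit and eBayes), two-sided, with Benjamini-Hochberg adjustment over 18194 genes and a call at an adjusted p under 0.05. Of the 34958 probe sets with exactly 1 symbol, the one with the highest mean stood for its gene; every member probe set was also tested among all 34958. The number of arrays limits the precision. Tested on simulated data for 144 h against 0 h over 18194 genes, the fit recovered 19 of 50 changes of 0.5 log2 units, 46 of 50 of 1 and 50 of 50 of 2, with 14 false calls. The simulated noise was independent between arrays, and only 50 genes were changed by each size, while 5169 genes were called in the data. The recoveries are thus a check of the fit and not its power in the data.

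The members and lists were chosen with earlier results of these data known. Named were the 6 members, in each list up to 4 genes called at 144 h with the largest difference and up to 2 called under cycloheximide at 3 h, Bag3 and Hsf1, and the 3 genes most like each member. Replicate numbers were read as pairing arrays in the 14 of 20 comparisons where every same-numbered pair of deviations correlated above 0.1. In the others the arrays were taken to share only numbers. This reading entered no fit: the main fit held no replicate term, and the replicate block was fitted over all comparisons. Of the 48 arrays, 44 correlated best with their own number. Alternatives were trend and robust variance, quantile normalization, centring on 10 housekeeping genes, the mean of a gene's probe sets, leaving out _x_at and _s_at probe sets, a floor of 5 on the highest group mean, only the arrays compared, the replicate block and leaving out each array.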

Additional observations from a re-analysis of the deposited data

How the results depend on the processing

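No gene changed direction in a call under any alternative. With the replicate number as a block, members called became 2 at 6 h (from 1), 3 at 9 h (from 1), 3 at 12 h (from 2), 6 at 48 h and at 96 h (from 5), 6 at 144 h against 24 h before (from 5), 1 at 0 h against 24 h before (from 0), 5 from 12 h to 24 h (from 2), 4 from 24 h to 48 h (from 2), 2 from 48 h to 96 h (from 1), and 2 and 1 under cycloheximide at 1 h and 3 h (from 0). Of these, the comparisons with 24 h before and cycloheximide at 1 h shared only numbers; there the block called Hspb2 (adjusted p = 0.0035 and 0.00385) and, at 1 h, Hspb8 (0.0229), and it called Hspb1 at 144 h against 24 h before (7.32e-05). With only the arrays compared, members called were 0 at 6 h, 0 at 9 h, 1 at 0 h against 24 h before (Hspb2), 1 from 12 h to 24 h, 1 from 24 h to 48 h and 0 from 48 h to 96 h. Quantile normalization again gave 1 under cycloheximide at 3 h. Leaving out single arrays, members called ranged from 0 to 1 at 6 h, 4 to 5 at 24 h, 5 to 6 at 144 h, 0 to 4 from 12 h to 24 h, 1 to 2 from 24 h to 48 h, and 0 to 1 under cycloheximide at 1 h and at 3 h. The F-test over the 12 times called 5 to 6. The calls of Hspb2, Hspb3, Hspb7 and Cryab at 24, 48, 96 and 144 h against 0 h, and of Hspb8 at 48, 96 and 144 h, held in all alternatives run. Over all genes the calls ranged from 3 to 465 at 6 h (main 92), 0 to 748 at 9 h (247) and 195 to 1149 at 12 h (513). They ranged from 1606 to 4249 at 24 h (2544), 3562 to 6082 at 48 h (4854), 4338 to 8060 at 96 h (5924) and 3841 to 6852 at 144 h (5169). Steps had 94 to 657 from 12 h to 24 h (243), 282 to 1475 to 48 h (708) and 8 to 1551 to 96 h (844). Against 24 h before there were 1415 to 3491 at 0 h (2388) and 4962 to 10270 at 144 h (6324). Cycloheximide gave 1234 to 6003 at 1 h (4470) and 4376 to 7451 at 3 h (6250). These ranges pool all alternatives, so a change in members called is not set against all genes under the same setting. Centring on housekeeping genes moved the median of all genes at 144 h from 0.04 to 0.19 and the share of calls that were higher from 47.6% to 72.6%; for cycloheximide at 3 h quantile normalization moved that share from 90.0% to 53.7%.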

Other observations

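Genes that work with the 6 members are given under cycloheximide at 3 h, where 30.9% of all genes were called higher and 3.42% lower. No list had a share of higher genes beyond 2 of 6, which at the main scaling is near that background. After quantile normalization 2352 of 18194 genes were called higher in place of 5628, so the background share depends on scaling. Bag3 was higher by 0.63 (SE 0.10) and Synpo2 by 1.22 (SE 0.22), the 2 called genes of the 6 in the Bag3 pathway. Among kinases Mapkapk5 (0.70) and Mapk14 (0.53) were higher, 2 of 7. Among cytoskeletal partners Pxn was higher (0.67) and Tubb5 lower (-1.002), 2 of 10. Unc45a, from the list of myosin-folding chaperones, was higher (0.98), and Mef2d was lower (-0.44). The median difference of all genes in this comparison was 0.19. Bag3, Synpo2, Mapkapk5, Mapk14, Pxn, Tubb5, Unc45a and Mef2d were called under quantile normalization and housekeeping centring as well. Of the heat shock response 3 of 15 were higher, Chordc1 (0.68) among them, which was not called after quantile normalization.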
